A study of Mus musculus with 14 samples.

Results

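Expression of 10 genes of the heat shock protein system was followed in mouse skin regulatory T (Treg) cells and hair follicle stem cells (HFSC). The genes were taken by their symbols, Hspa1a, Hspa1b, Hspa8, Hspb1, Hsph1, Dnaja1, Dnajb1, Hspd1, Hspe1 and Hsf1, and all 10 had a row in both deposited tables, among 24537 gene rows in all. RNA came from sorted cells of mice after hair depilation, a procedure that starts a new hair growth cycle. The 4 groups were Treg cells from GR KO mice (5 libraries) and from GR WT mice (3 libraries), collected 1 day after depilation, and HFSC from GR KO mice (3 libraries) and from GR WT mice (3 libraries), collected 4 days after depilation. GR KO stands for the genotype Foxp3YFP-Cre GRfl/fl, in which Cre expressed from the Foxp3 locus deletes the floxed gene of the glucocorticoid receptor (GR, encoded by Nr3c1) in Foxp3-expressing cells. GR WT stands for wild type, and whether these mice carried the Cre allele is not given in the sources used here, nor are age and sex. HFSC were sorted as CD34-positive, integrin alpha 6-high skin cells. Since Foxp3 drives the Cre, the GR KO label of an HFSC library describes the mouse, not a deletion aimed at the HFSC. The study set GR KO against GR WT within each cell type.

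Heat shock proteins are molecular chaperones, proteins that hold or refold other proteins. HSP70 proteins bind exposed stretches of unfolded clients in a cycle of ATP use that J-domain proteins (HSP40s) start and nucleotide exchange factors, among them HSP110, reset. Small heat shock proteins hold unfolded proteins without ATP, and the chaperonin HSP60 with its lid HSP10 folds proteins inside mitochondria. Heat shock factor 1 (HSF1) is kept inactive by chaperones. When unfolded proteins occupy those chaperones it forms trimers and binds heat shock elements, inverted repeats of GAA, in the promoters of chaperone genes. The unliganded glucocorticoid receptor is itself a client of HSP70 and HSP90, which hold it in a state that can bind hormone. Cell dissociation and sorting are also known to induce Hspa1a, Hspa1b, Dnajb1 and immediate early genes.

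Promoter sequences were examined for such elements. RefSeq windows (build GRCm38.p6) of 300 bases, 250 before and 50 after the transcript start, lay at the start used in the deposited tables for 8 of the 10 genes, all but Hspa8 and Hsf1. A heat shock element of 2 units, GAANNTTC or TTCNNGAA, was found in 7 of these 8 windows, the exception being Dnajb1, and in 15.1% of all 32851 windows of this length. Each of these strings is its own reverse complement, so 1 search covers both strands. An element of 3 units, made of 2 such matches that share a unit, was found in 3 of the 8, Hsph1, Hspd1 and Hspe1, and in 0.603% of all windows. The glucocorticoid response element, searched as GNACA, any 3 bases and TGTNC and also its own reverse complement, was found in 0 of the 8 and in 0.475% of all windows. A match describes the letters of the window and shows no binding, and its lack says nothing about the factor. The 4 windows below are shown 5′ to 3′ on the strand of the gene, with heat shock element matches in capitals: the near-identical pair Hspa1a (chr17:34972107-34972406, minus strand) and Hspa1b (chr17:34959189-34959488, minus strand), Hspb1 (chr5:135887669-135887968, plus strand), and Hspd1 (chr1:55087883-55088182, minus strand), whose window also covers most of the Hspe1 promoter.
Hspa1a: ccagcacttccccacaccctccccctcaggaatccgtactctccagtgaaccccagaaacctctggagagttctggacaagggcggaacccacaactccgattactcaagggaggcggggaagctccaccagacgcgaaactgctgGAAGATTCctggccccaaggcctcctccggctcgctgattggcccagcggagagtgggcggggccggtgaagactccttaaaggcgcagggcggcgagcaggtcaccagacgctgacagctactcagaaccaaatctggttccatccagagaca
Hspa1b: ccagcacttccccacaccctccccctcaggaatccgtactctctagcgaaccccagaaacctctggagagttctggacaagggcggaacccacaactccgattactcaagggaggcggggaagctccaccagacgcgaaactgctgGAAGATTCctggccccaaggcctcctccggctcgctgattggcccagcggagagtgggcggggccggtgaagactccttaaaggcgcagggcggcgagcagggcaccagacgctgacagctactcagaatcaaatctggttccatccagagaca
Hspb1: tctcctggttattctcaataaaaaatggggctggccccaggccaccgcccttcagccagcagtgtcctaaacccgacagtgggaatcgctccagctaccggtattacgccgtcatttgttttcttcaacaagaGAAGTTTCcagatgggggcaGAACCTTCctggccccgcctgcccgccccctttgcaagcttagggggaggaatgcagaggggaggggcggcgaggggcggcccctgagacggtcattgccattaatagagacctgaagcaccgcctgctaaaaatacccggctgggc
Hspd1: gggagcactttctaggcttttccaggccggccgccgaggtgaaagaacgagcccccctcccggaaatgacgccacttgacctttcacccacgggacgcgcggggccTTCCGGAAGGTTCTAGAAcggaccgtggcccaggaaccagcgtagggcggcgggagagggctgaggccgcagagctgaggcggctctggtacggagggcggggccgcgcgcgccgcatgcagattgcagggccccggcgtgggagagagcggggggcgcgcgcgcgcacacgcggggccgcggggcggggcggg
The Hspa1a and Hspa1b windows were identical at 296 of 300 bases (98.7%), and both held the match GAAGATTC starting 104 bases before the transcript start. Hspb1 held separate matches starting 117 and 97 bases before the start. Hspd1 and Hspe1 lie head to head with starts 216 bases apart, and their windows shared 285 bases. The block TTCCGGAAGGTTCTAGAA of Hspd1, starting 144 bases before its start, therefore reads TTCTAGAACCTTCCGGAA on the Hspe1 strand, 89 bases before the Hspe1 start.

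Levels are given in TPM, reads per transcript length scaled to a common total, so that genes can be compared within a library. Recovered depth was 9.2 to 14.5 M tags in Treg libraries and 4.5 to 8.0 M in HFSC libraries, with GR WT replicate 1 the shallowest HFSC library. The 10 genes were far from the detection limit, with at least 212 tags (Hspb1) in any Treg library and at least 271 tags (Hsf1) in any HFSC library, while 3 tags on a transcript of 2000 bases amounted to 0.138 to 0.207 TPM in Treg and 0.308 to 0.515 TPM in HFSC libraries. Marker sums told the cell types apart. For 9 Treg markers, Treg libraries had sums of 9104 to 12733 TPM, against 91.1 to 135 TPM for HFSC. For 10 HFSC markers, HFSC libraries had sums of 14325 to 23721 TPM, against 42.5 to 555 TPM for Treg cells. In the HFSC libraries, basal keratinocyte genes reached sums of 17045 to 27842 TPM, and sebocyte and adipocyte genes 3471 to 9067 TPM. The HFSC marker sum alone therefore cannot tell stem cells from other basal keratinocytes. On the first principal component, Treg GR WT replicate 3 (52.1) lay beyond the other Treg libraries (-24.5 to 22.9), and HFSC GR WT replicate 1 (59.8) beyond the other HFSC libraries (-17.7 to -4.0). Nr3c1, the targeted gene, stood at 129.5 ± 27.3 TPM in Treg GR KO against 211 ± 35.3 TPM in Treg GR WT (SD, n = 5 and 3; log2 fold change -0.71, limma adjusted p = 0.0722), and at 43.6 ± 6.89 TPM in HFSC GR KO against 41.6 ± 7.07 TPM in HFSC GR WT (SD, n = 3 each; adjusted p = 0.870).

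The summed transcript level of the 10 genes was of similar size in all 4 groups, but its makeup differed between the cell types. The sum ranged over 2169 to 2785 TPM in Treg GR KO, 2375 to 2853 TPM in Treg GR WT, 2169 to 2289 TPM in HFSC GR KO and 2022 to 2253 TPM in HFSC GR WT. That was 0.325% to 0.424%, 0.363% to 0.439%, 0.339% to 0.357% and 0.316% to 0.350% of the TPM listed per library, in the same order. The constitutive HSP70 gene Hspa8 ranked first in every group. After it, Treg cells ranked Hspa1b, Dnaja1 and Hspa1a highest, whereas HFSC ranked Dnajb1 second, followed by Hspb1, Hspd1 and Hspa1b, whose ranges overlapped within each HFSC group. At the bottom, Hsf1 and Hspb1 were the lowest 2 in both Treg groups, with separate ranges in each, and Hsph1, Hsf1 and Dnaja1 were the lowest 3 in both HFSC groups. Neighbours in the order often did not differ beyond their spread: the ranges of Hspa1a and Dnaja1 and those of Dnajb1 and Hspe1 overlapped in both Treg groups, as did those of Dnaja1 and Hsf1 in both HFSC groups.

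**Figure D1:**
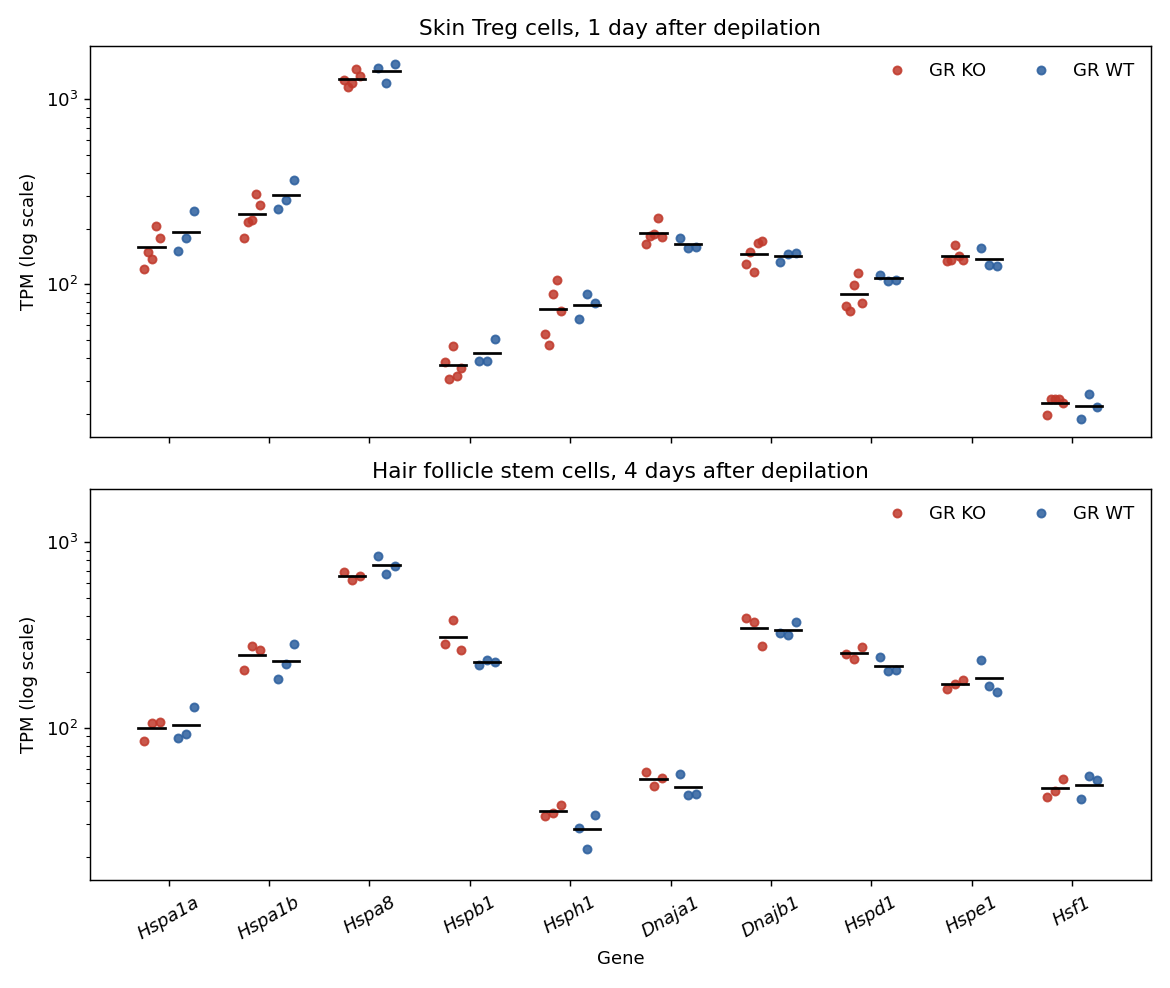
TPM of each of the 10 genes in every library on a log axis, for Treg cells (top) and HFSC (bottom), with GR KO left of GR WT for each gene; each point is 1 library and the bar is the group mean. Hspa8 lies highest in all groups, Hspb1 lies lower in all Treg than in all HFSC libraries, and GR KO and GR WT points overlap for every gene except Hspb1 in HFSC.

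Between the cell types, 7 of the 10 genes had ranges that did not overlap, beside 62.6% of the 13710 genes set side by side in this way. The tables were made separately and the cells were taken at different days, so this is a description with no test, and cell type cannot be told apart from day or table. In these bulk samples, fewer cells of a type and less RNA per cell cannot be told apart either. In the 8 Treg libraries against the 6 HFSC libraries, 3 genes were higher in Treg cells, beside 19.9% of all genes. Dnaja1, a farnesylated HSP40 of the cytosol, had a lowest, median and highest value of 157, 179.7 and 227 TPM in Treg against 43.2, 50.8 and 57.3 TPM in HFSC, a median ratio of 3.54. Hsph1, the HSP110 nucleotide exchange factor, had 46.9, 75.5 and 105 TPM in Treg against 22.2, 33.7 and 38.4 TPM in HFSC, a median ratio of 2.24. Hspa8 had 1162, 1296 and 1552 TPM in Treg against 624, 684 and 842 TPM in HFSC, a median ratio of 1.90. The products of all 3 take part in the HSP70 cycle of the cytosol. So do those of Dnajb1, which was lower in Treg cells, and of Hspa1a and Hspa1b, whose ranges overlapped.

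The other 4 separated genes were lower in Treg cells, beside 42.7% of all genes. The widest gap among the 10 was that of Hspb1, which encodes the small heat shock protein HSP25 (HSP27 in humans) that also binds actin and keratin filaments. Hspb1 had a lowest, median and highest value of 31.0, 38.4 and 50.7 TPM in Treg against 218, 248 and 379 TPM in HFSC, so the HFSC median was 6.46 times the Treg median. Dnajb1, the stress-inducible HSP40, had 116, 147 and 171 TPM in Treg against 275, 347 and 391.7 TPM in HFSC, an HFSC over Treg ratio of 2.36. Hspd1, which encodes HSP60, had 71.7, 102 and 116 TPM in Treg against 203, 237 and 273 TPM in HFSC, a ratio of 2.32. Hsf1 was lowest at 18.7, 23.4 and 25.4 TPM in Treg against 41.0, 48.7 and 54.5 TPM in HFSC, a ratio of 2.09. The 2 HSP40 genes therefore stood in opposite order in the cell types: within a library the Dnajb1 to Dnaja1 ratio was 0.623 to 0.948 in Treg and 5.16 to 8.46 in HFSC.

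Hspa1a, Hspa1b and Hspe1 had overlapping ranges. Hspa1a had a median of 165 TPM in Treg against 99.2 TPM in HFSC, with a highest HFSC value of 129 TPM above the lowest Treg value of 120.4 TPM. Hspa1b had medians of 263 TPM in Treg against 242 TPM in HFSC, and Hspe1, which encodes HSP10, had 135 TPM in Treg against 170.2 TPM in HFSC. Although Hspa1a and Hspa1b encode nearly the same HSP70, their ratio was 0.589 to 0.690 in all Treg libraries and 0.387 to 0.479 in all HFSC libraries. Likewise the HSP10 to HSP60 transcript ratio, Hspe1 over Hspd1, was above 1 in every Treg library (1.19 to 1.88) and below 1 in every HFSC library (0.654 to 0.973). These ratios were chosen after their values were seen and are given as values only.

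Between the genotypes, none of the 10 genes passed the threshold in either cell type. Each table was fitted whole with limma on log2(TPM + 1), with an adjusted p of 0.05 over all genes tested as the threshold, and this called 1.51% of 11579 genes in Treg (23 higher and 152 lower in GR KO) and 0.176% of 12493 genes in HFSC (18 higher and 4 lower). With such shares, 0 of 10 is near the background in both tables. At an unadjusted p of 0.05 the counts were 0 of 10 in Treg, where 14.1% of all genes passed, and 1 of 10 (Hspb1) in HFSC, where 16.6% passed. GR KO and GR WT libraries overlapped for all 10 genes in Treg, where 8.52% of all genes did not overlap, and for 9 of 10 in HFSC, where 23.5% did not. In both tables the 95% intervals of all 10 genes lay within a 2-fold change either way. They lay between -0.73 and 0.43 on the log2 scale in Treg and between -0.44 and 0.75 in HFSC. Each interval covers 1 gene and rests on the spread of these libraries, which the labels do not say are separate mice. The median log2 fold change of the 10 genes was -0.13 in Treg, with 4 of 10 above 0, against -0.04 for all genes, of which 44.2% were above 0. In HFSC it was 0.08, with 6 of 10 above 0, against -0.02 for all genes, of which 47.2% were above 0.

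**Figure D2:**
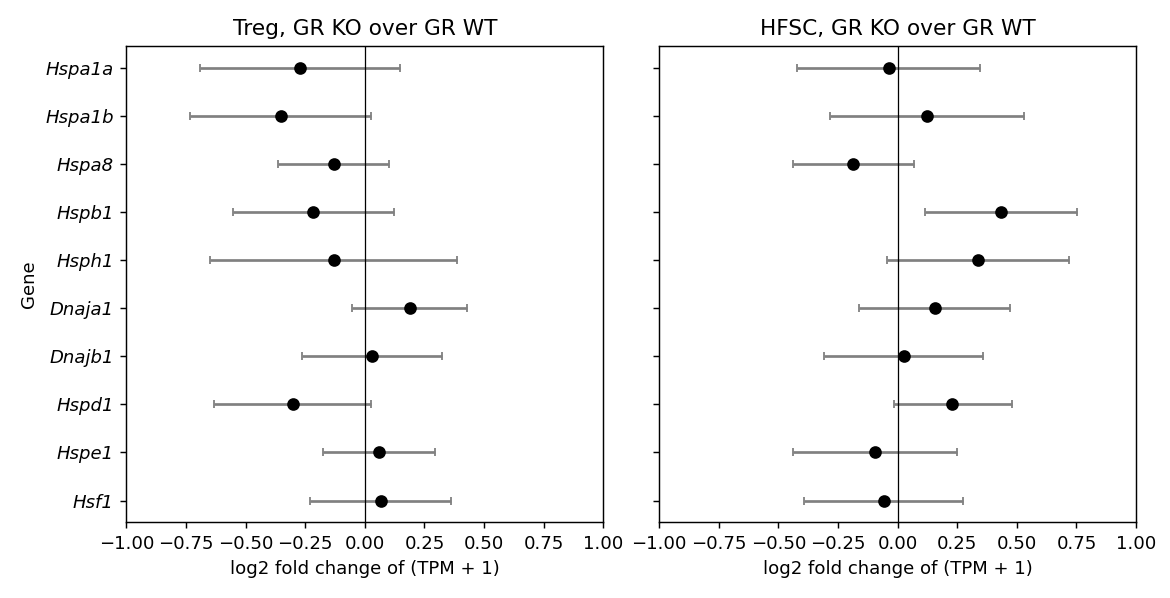
Log2 fold change of GR KO over GR WT for the 10 genes in Treg cells and HFSC, with bars for the 95% interval of the limma fit and a line at 0. All intervals except that of Hspb1 in HFSC, 0.12 to 0.75, include 0, and none reaches a 2-fold change.

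Hsf1, the gene of the factor itself (chr15:76477362-76501155 of mm10, plus strand), stood at nearly the same level in both genotypes. In Treg cells it had 19.8, 23.9, 23.9, 24.0 and 22.8 TPM in the GR KO libraries, against 18.7, 25.4 and 21.7 TPM in the GR WT libraries, and the groups overlapped fully. The difference was 0.07 ± 0.13 on the log2 scale (SE; limma adjusted p = 0.872). In HFSC it had 42.4, 45.6 and 53.0 TPM in GR KO against 41.0, 54.5 and 51.9 TPM in GR WT, a log2 fold change of -0.06 ± 0.15 (adjusted p = 0.871). HSF1 activity depends on its trimer form and phosphorylation, which transcript levels do not measure.

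The stress-inducible HSP70 genes Hspa1a (chr17:34969359-34972156, minus strand) and Hspa1b (chr17:34956429-34959238, minus strand) had GR KO means below the GR WT means in Treg cells, within the spread. Hspa1a had 120.4, 149, 137, 208 and 178 TPM in Treg GR KO, against 151, 179 and 248 TPM in Treg GR WT. Hspa1b had 177, 216, 221, 308 and 269 TPM in Treg GR KO, against 256, 287 and 364 TPM in Treg GR WT. For both genes, GR KO replicate 1 was lowest, GR KO replicate 4 was highest within GR KO, and GR WT replicate 3 was highest of all 8, so the pair moved together from library to library. The log2 fold changes were -0.27 ± 0.19 for Hspa1a (SE; adjusted p = 0.557) and -0.35 ± 0.17 for Hspa1b (adjusted p = 0.391). With each library left out in turn, the log2 fold change of Hspa1b lay between -0.46 and -0.21 and that of Hspa1a between -0.43 and -0.08.

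In HFSC the same pair gave fold changes close to 0. Hspa1a had 84.9, 106 and 107 TPM in HFSC GR KO against 87.6, 92.2 and 129 TPM in HFSC GR WT, a log2 fold change of -0.04 ± 0.17 (SE; limma adjusted p = 0.934). Hspa1b had 205, 274 and 264 TPM in HFSC GR KO against 183, 220.0 and 284 TPM in HFSC GR WT, a log2 fold change of 0.13 ± 0.18 (adjusted p = 0.763). GR WT replicate 3 was the highest of the 6 libraries for both genes, and the groups overlapped. Reads of the pair may be split between the rows: 47.1% of the 100-base windows of the Hspa1a transcript and 49.9% of those of Hspa1b also occur in the other gene, and the counting of reads with several matches is not given in the sources used here. Summed to 1 row, the pair had a log2 fold change of -0.32 in Treg (adjusted p = 0.453) and of 0.08 in HFSC (adjusted p = 0.861).

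Hspa8 (chr9:40801273-40805199, plus strand), which encodes the constitutive HSC70, was the most abundant of the 10 and among the steadiest. It had 1263, 1162, 1226, 1457 and 1329.6 TPM in Treg GR KO, against 1465, 1222 and 1552 TPM in Treg GR WT (log2 fold change -0.13 ± 0.11 SE, limma adjusted p = 0.618). In HFSC it had 695, 624 and 662 TPM in GR KO against 842, 672 and 746 TPM in GR WT (-0.19 ± 0.11, adjusted p = 0.441). The GR KO mean was the lower one in both cell types, and in HFSC only the highest GR KO library exceeded the lowest GR WT library. Of the 100-base windows of Hspa8, 63.4% also occur in other genes, mainly pseudogenes with no row in the tables. Set against Hspa8 in the same library, the summed inducible pair was 0.235 to 0.354 in Treg GR KO, 0.278 to 0.394 in Treg GR WT, 0.417 to 0.610 in HFSC GR KO and 0.321 to 0.555 in HFSC GR WT.

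Hsph1 (chr5:149616845-149636315, minus strand), whose HSP110 product resets HSP70 and is itself strongly heat-inducible, varied more than the others in Treg cells. It had 53.6, 46.9, 88.1, 105 and 72.2 TPM in Treg GR KO, against 65.0, 88.5 and 78.8 TPM in Treg GR WT. The GR KO range enclosed the GR WT range, with a log2 fold change of -0.13 ± 0.24 (SE; limma adjusted p = 0.854). In HFSC it had 33.5, 34.8 and 38.4 TPM in GR KO against 28.8, 22.2 and 33.9 TPM in GR WT, a log2 fold change of 0.34 ± 0.17 (adjusted p = 0.354). There the groups overlapped by 1 library on each side. Per unit of Hspa8 in the same library, Hsph1 was 0.0482 to 0.0580 in HFSC GR KO and 0.0330 to 0.0455 in HFSC GR WT. These ranges did not touch, but the ratio was chosen after its values were seen. Among single HFSC genes, 23.5% had groups that did not overlap, and no such share was computed for ratios.

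The J-domain genes Dnaja1 (chr4:40722468-40734965, plus strand) and Dnajb1 (chr8:83608175-83612653, plus strand) had small differences. Dnaja1 had 164, 183, 186, 227 and 181 TPM in Treg GR KO, against 179, 157 and 158 TPM in Treg GR WT, with 4 of 5 GR KO libraries above all GR WT libraries. Its log2 fold change came to 0.19 ± 0.11 (SE; limma adjusted p = 0.482). In HFSC it had 57.3, 48.3 and 53.3 TPM in GR KO against 56.1, 43.2 and 43.8 TPM in GR WT (0.16 ± 0.14, adjusted p = 0.612). Dnajb1 was level between the genotypes in both cell types. It had 128, 149, 116, 167 and 171 TPM in Treg GR KO, against 131, 146 and 148 TPM in Treg GR WT (0.03 ± 0.13, adjusted p = 0.946). In HFSC it had 391.7, 370.1 and 275 TPM in GR KO against 325, 315 and 370.4 TPM in GR WT (0.03 ± 0.15, adjusted p = 0.951), with GR KO replicate 3 the lowest of the 6.

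Hspb1 (chr5:135887919-135889563, plus strand) was the only gene of the 10 whose genotype groups did not overlap, and this was in HFSC. It had 283, 379 and 264 TPM in HFSC GR KO, against 218, 232 and 226 TPM in HFSC GR WT. All 3 GR KO libraries lay above all 3 GR WT libraries, with replicate 2 well above the other GR KO libraries and the GR WT libraries close together. The means were 308 ± 61.6 TPM in GR KO and 225 ± 6.89 TPM in GR WT (SD, n = 3 each), and the log2 fold change was 0.43 ± 0.14 (SE; 95% interval 0.12 to 0.75). Its adjusted p of 0.185 (limma, unadjusted p = 0.0136) missed the threshold, and 10.7% of all HFSC genes had GR KO libraries all above GR WT. Over the alternatives tried, the adjusted p lay between 0.0846 and 0.431 and the log2 fold change between 0.28 and 0.54. In Treg cells Hspb1 had 38.3, 31.0, 46.5, 31.9 and 35.4 TPM in GR KO against 38.7, 38.4 and 50.7 TPM in GR WT, overlapping, with a log2 fold change of -0.22 ± 0.15 (adjusted p = 0.566). Of the 100-base windows of Hspb1, 56.3% also occur in its pseudogene Hsp25-ps1, which has no row in the tables.

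Markers of other cells moved beside these values. In HFSC, a list of sebocyte and adipocyte genes summed to 7259 to 9067 TPM in GR KO and 3471 to 5116 TPM in GR WT. Of these 10 genes, 2 were called higher in GR KO, beside 0.144% of all genes. The 10 HFSC markers summed to 14325 to 17473 TPM in HFSC GR KO and 18763 to 23721 TPM in HFSC GR WT. Of these markers, 0 were called and 4 were lower at an unadjusted p of 0.05, beside 1100 of all 12493 genes. The part of either list in the Hspb1 difference was not tested. In Treg libraries, 10 basal keratinocyte genes summed to 28.4 to 114 TPM in GR KO against 350.5 to 589.5 TPM in GR WT, and 7 of 9 tested were called lower in GR KO, beside 1.31% of all genes. Macrophage and monocyte genes summed to 63.4 to 169 TPM in Treg GR KO against 207 to 369 TPM in Treg GR WT (4 of 10 called lower). Neutrophil genes summed to 168 to 248 TPM in Treg GR KO against 229 to 514 TPM in Treg GR WT (2 of 4 called lower), and sebocyte and adipocyte genes to 42.8 to 78.6 TPM in Treg GR KO against 115 to 135 TPM in Treg GR WT (3 of 7 called lower). Fibroblast and endothelial genes summed to 39.0 to 121 TPM in Treg GR KO against 129.5 to 217 TPM in Treg GR WT (0 of 8 called). The part of these transcripts in the Treg values of the 10 genes was not tested.

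The mitochondrial chaperonin genes Hspd1 (chr1:55077834-55087932, minus strand) and Hspe1 (chr1:55088148-55091317, plus strand) share a promoter region but did not keep a constant ratio. Hspd1 had 76.3, 71.7, 99.5, 116 and 79.1 TPM in Treg GR KO, against 112, 105 and 106 TPM in Treg GR WT. Of the GR KO libraries, 4 of 5 lay below all GR WT libraries and replicate 4 lay above them, and the log2 fold change came to -0.30 ± 0.15 (SE; limma adjusted p = 0.396). Hspe1 had 134, 135, 164, 142 and 136 TPM in Treg GR KO, against 156, 128 and 126 TPM in Treg GR WT (0.06 ± 0.11, adjusted p = 0.852). Within Treg libraries the Hspe1 to Hspd1 ratio was 1.76, 1.88, 1.65, 1.23 and 1.72 in GR KO and 1.40, 1.22 and 1.19 in GR WT, so the ratio was above the GR WT range in 4 of 5 GR KO libraries.

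In HFSC the Hspe1 to Hspd1 ratio was lower in the GR KO libraries. Hspd1 had 248, 235 and 273 TPM in HFSC GR KO against 239, 203 and 204 TPM in HFSC GR WT, a log2 fold change of 0.23 ± 0.11 (SE; limma adjusted p = 0.333), overlapping by 1 library. Hspe1 had 162, 172 and 180.0 TPM in HFSC GR KO against 233, 168 and 156 TPM in HFSC GR WT (-0.10 ± 0.15, adjusted p = 0.791). The Hspe1 to Hspd1 ratio was 0.654, 0.731 and 0.659 in GR KO and 0.973, 0.830 and 0.768 in GR WT. All GR KO libraries lay below all GR WT libraries. Of single genes in HFSC, 23.5% had groups that did not overlap, and no such share was computed for ratios. No test was made of these ratios, and the difference between the cell types was not tested. The share of 100-base windows that also occur in other genes was 26.9% for Hspd1 and 22.4% for Hspe1.

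**Figure D3:**
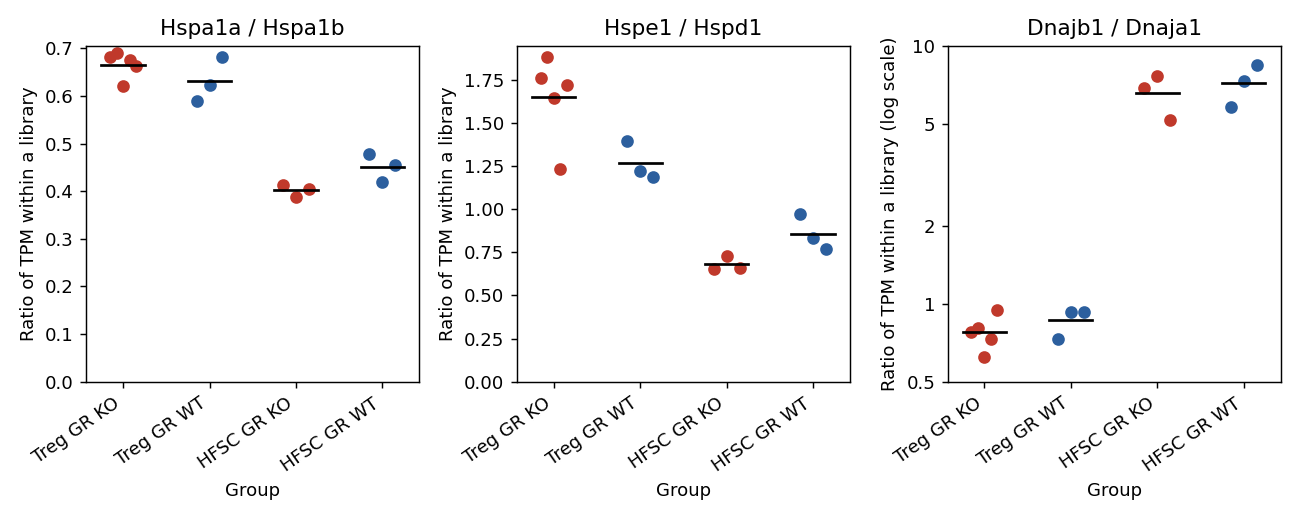
Ratios of TPM within each library for pairs of the 10 genes, with Treg GR KO, Treg GR WT, HFSC GR KO and HFSC GR WT from left to right, 1 point per library and a bar at the mean; the Dnajb1 over Dnaja1 axis is a log scale. Hspe1 over Hspd1 lies above 1 in Treg and below 1 in HFSC, and Dnajb1 over Dnaja1 lies below 1 in Treg and above 5 in HFSC.

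Hsph1, Hspa1a and Hspa1b had the highest spread of the 10 among libraries of 1 genotype in both cell types. In Treg cells the within-group SD on the log2 scale was 0.41 for Hsph1, 0.33 for Hspa1a and 0.29 for Hspa1b, more than that of 96.0%, 91.7% and 87.4% of the 4593 genes averaging 20 TPM or more, whose median SD was 0.18. Hspa8 (0.14) and Hspe1 (0.14) were below that median, and Dnajb1 (0.20) was below Hspd1 (0.24) and Hspb1 (0.23). In HFSC Hspa1b (0.28), Hspa1a (0.25) and Hsph1 (0.22) were above 83.1%, 77.4% and 69.1% of 5938 genes. Treg GR KO replicate 4 held the highest GR KO value for 7 of the 10 genes, all but Hspb1, Dnajb1 and Hspe1, beside 33.9% of the 4593 genes. GR KO replicate 1 held the lowest value for 5 of the 10, beside 35.6% of those genes, and GR KO replicate 2 for 4 of the 10, beside 13.5%.

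Wider chaperone and stress genes were then set beside the 10. Over 12 lists of related genes (163 genes besides the 10), 0 of 149 tested were called in Treg and 0 of 151 in HFSC. At an unadjusted p of 0.05, 6 were higher and 14 lower in Treg GR KO, 13.4% of those tested beside 14.1% of all genes, and 22 were higher and 15 lower in HFSC GR KO, 24.5% beside 16.6%. The HSP90 genes, whose products hold the glucocorticoid receptor, were among those not called. Hsp90aa1 stood at 368 ± 52.4 TPM in Treg GR KO and 419 ± 32.6 TPM in Treg GR WT (log2 fold change -0.20, limma adjusted p = 0.494), and Hsp90ab1 at 895 ± 164 TPM in Treg GR KO and 995 ± 76.7 TPM in Treg GR WT (-0.17, adjusted p = 0.638). In HFSC the log2 fold change was 0.06 for Hsp90aa1 (adjusted p = 0.865) and -0.14 for Hsp90ab1 (adjusted p = 0.613).

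Among 26 tested heat shock genes besides the 10 in Treg cells, the median log2 fold change was -0.03. Of these 26, 3 had an unadjusted p under 0.05, beside 14.1% of all genes. All 3 were lower in GR KO, as were 1034 of all 1630 Treg genes with such a p. Bag3, a nucleotide exchange factor that pairs HSP70 with small heat shock proteins, came closest to the threshold. It had 14.7, 17.2, 16.7, 19.7 and 19.9 TPM in Treg GR KO, against 25.7, 26.6 and 35.2 TPM in Treg GR WT, with no overlap (log2 fold change -0.69 ± 0.15 SE, limma adjusted p = 0.053; between 0.0312 and 0.239 over the alternatives). The small heat shock protein genes Cryab (3.13 ± 2.76 TPM in GR KO, 11.3 ± 4.42 TPM in GR WT, adjusted p = 0.179) and Hspb8 (1.195 ± 0.73 TPM in GR KO, 3.51 ± 2.03 TPM in GR WT, adjusted p = 0.242) were the other 2. Bag3 and Hspb8 had medians of 96.4 and 95.9 TPM over the HFSC libraries against 19.8 and 1.97 TPM over the Treg libraries, and they moved beside the keratinocyte genes given above; the part of those transcripts in the Treg values of Bag3 and Hspb8 was not tested. The 8 other HSP70 and HSP110 genes, 34 other J-domain genes, 14 chaperonin TRiC and prefoldin genes and 12 mitochondrial chaperone and protease genes had medians of -0.03, 0.02, 0.04 and -0.02. The 4 other small heat shock protein genes had a median of -0.90, with 1 above 0. Of 20 immediate early genes, 5 had a log2 fold change above 0 (median -0.23, none called). An unadjusted p under 0.05 was found for 7 of these 20, 2 higher and 5 lower in GR KO, beside 14.1% of all genes. Of 9 oxidative stress genes, 2 were higher and 2 lower at that p (median -0.095). The part of these lists in the Treg values of the 10 genes was not tested.

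In HFSC, 11 of the 26 tested heat shock genes besides the 10 had a log2 fold change above 0 (median -0.07). An unadjusted p under 0.05 was found for 5 of the 26, 4 higher and 1 lower in GR KO, beside 16.6% of all genes. These 5 included Dnajb4, an HSP40 (60.1 ± 4.99 TPM in GR KO, 44.0 ± 5.18 TPM in GR WT, adjusted p = 0.151), and Serpinh1, the collagen chaperone HSP47 of the endoplasmic reticulum (156.5 ± 11.6 TPM in GR KO, 206 ± 28.8 TPM in GR WT, adjusted p = 0.190). Of 14 chaperonin TRiC and prefoldin genes, whose products fold actin and tubulin, 2 had a log2 fold change above 0 (median -0.12). Of 18 endoplasmic reticulum chaperone and stress genes, 15 had a log2 fold change above 0 (median 0.16), and 8 had all GR KO libraries above GR WT, beside 10.7% of all genes. Hspa5, the HSP70 of the endoplasmic reticulum, stood at 467 ± 22.0 TPM in GR KO and 361 ± 38.2 TPM in GR WT (log2 fold change 0.37, adjusted p = 0.151), and Xbp1, a factor of the unfolded protein response, had the smallest p of that list (0.60, adjusted p = 0.0907). All 20 immediate early genes, which sorting can induce, were above 0 (median 0.29, none called), and summed to 18761 to 23229 TPM in HFSC GR KO and 17495 to 17951 TPM in HFSC GR WT. Their part in the Hspb1, Hsph1 and Hspd1 values was not tested.

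**Figure D4:**
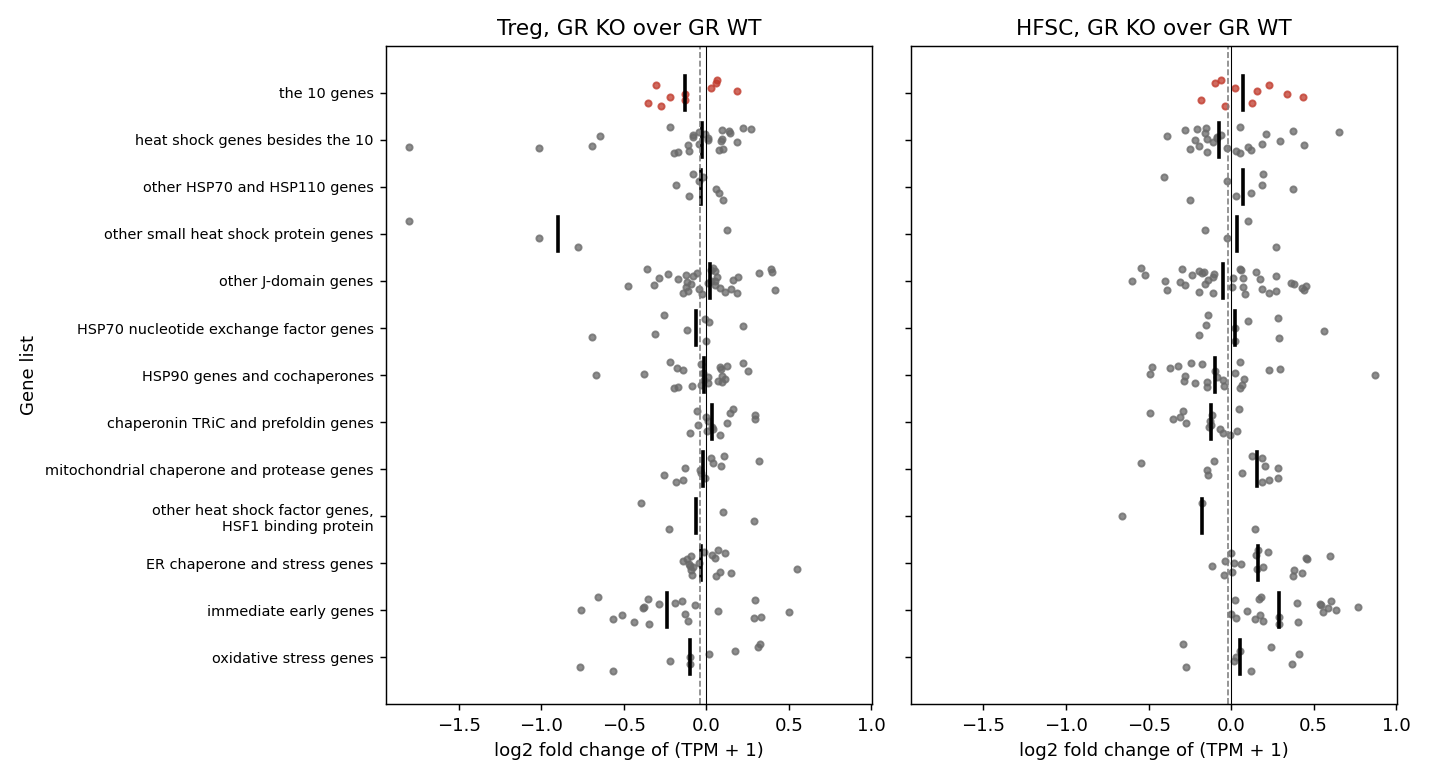
Log2 fold change of GR KO over GR WT for the genes of each list of chaperone and stress genes in Treg cells and HFSC, 1 point per gene with a bar at the list median and a dashed line at the median of all genes. The 10 genes have medians of -0.13 in Treg and 0.08 in HFSC, and the immediate early genes in HFSC all lie above 0.

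Among genes other than the 10, those whose library-to-library profile was most like that of 4 of the 10 were found by the root mean square difference of centred log2(TPM + 1) values, over 8 Treg or 6 HFSC libraries, where 0 is an identical profile. On this scale Hspa1b itself differed from Hspa1a by 0.077 in Treg cells and 0.103 in HFSC. In Treg cells they were Zfp27 (0.0775), Zbtb38 and Morc2a for Hspa1a, Hmga1 (0.0854), Srfbp1 and Actg1 for Hspb1, Tpr (0.0867), Ppig and Aida for Hspd1, and Gosr1 (0.0501), Tomm34 and Mios for Hsf1. In HFSC they were Fam204a (0.0507), Lamtor3 and Dvl3 for Hspa1a, Rnf19b (0.0498), Aig1 and Btg1 for Hspb1, Mccc1 (0.0283), Csnk2a1 and Ddt for Hspd1, and Slc25a42 (0.0267), Ppard and Rtn4rl1 for Hsf1. None of the nearest genes was shared between the cell types. With 3 taken per gene from 11569 Treg and 12483 HFSC genes, this cannot show a difference between the cell types.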

How the data were processed

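RNA of 14 sorted samples was sequenced from stranded mRNA libraries, per the labels' protocols. Reads were handled with STAR, HOMER, Trim Galore and FastQC on build mm10, per the submitters' processing notes. Versions, strand use in counting and the treatment of reads with several matches were not given in the sources used here. The authors deposited TPM in 1 table per cell type, with 1 RefSeq transcript per gene symbol, per the file headers. The tables were made separately, so tests ran within a table. Low values of TPM times length were whole multiples of 1 amount within 0.1 tag (100%), from which depth was recovered; limits from tags cover counting error only.

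Samples were grouped by their titles. Genes averaging 1 TPM or more entered a two-sided limma fit (version 3.58.1, R 4.3.3) of log2(TPM + 1), using a trended prior and Benjamini-Hochberg adjustment over all genes tested; fold changes on this scale understate the change of low genes. The fit was tested on simulated data. The labels do not say that replicates are separate mice, so the p-values reflect only how far these samples spread, which may be technical. The members, lists and named genes were chosen with earlier results of these data known; named genes are the 10, Nr3c1, the HSP90 genes, the 3 with the smallest p per list, and the 3 most alike in profile. Alternatives covered the pseudocount, filter, scaling, prior, sample weights, left-out libraries, a replicate block and the summed Hspa1a and Hspa1b rows. Sequence windows are from RefSeq (GRCm38.p6), and transcript windows of 100 bases from GENCODE M21.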

Additional observations from a re-analysis of the deposited data

Results flagged for a closer look

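Among 45 groups of 5 libraries examined, 4 had a library far from the rest, and chance gives about 1 in 20. Treg GR KO replicate 3 had 164 TPM of Hspe1, against 134 to 142 TPM in the other 4. Treg GR KO replicate 1 had 19.8 TPM of Hsf1, against 22.8 to 24.0 TPM. For Ppid, an HSP90-binding cyclophilin, Treg GR KO replicate 4 had 51.5 TPM, against 36.0 to 40.1 TPM. For Junb, an immediate early gene, Treg GR KO replicate 2 had 2747 TPM, against 2155 to 2287 TPM.

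Among the related genes, 2 had all GR KO libraries on 1 side of GR WT in Treg cells and on the opposite side in HFSC, 2 of 148 tested in both tables (1.35%), beside 124 of all 10362 genes tested in both (1.20%). Fkbp5, an HSP90 cochaperone and a known target of the glucocorticoid receptor, had a log2 fold change of -0.67 in Treg (adjusted p = 0.0793) and 0.87 in HFSC (limma adjusted p = 0.0689). Bag4, an HSP70 nucleotide exchange factor, had -0.31 in Treg (adjusted p = 0.553) and 0.56 in HFSC (adjusted p = 0.128). The difference between the cell types was not tested.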

How the results depend on the processing

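None of the 10 genes was called under any of the 18 alternatives in Treg or 16 in HFSC. The smallest limma adjusted p were 0.0998 (Hspa1b in Treg, with the replicate block) and 0.0846 (Hspb1 in HFSC, with limma sample weights). The replicate block kept only the numbers present in both genotypes, so in Treg it also left out GR KO replicates 4 and 5. The parts of the block and of the left-out libraries in the Treg values were not told apart. The sign of the log2 fold change changed 6 times in Treg (Dnajb1 4, Hsph1 1, Hsf1 1) and 13 times in HFSC (Hspa1a 4, Dnajb1 4, Hspe1 2, Hsf1 2, Hspa1b 1), all for uncalled values. Of the 4 for Hspa1a, 1 came from the summed row of Hspa1a and Hspa1b, not from Hspa1a itself. The number of genes called over the whole table was less stable. In Treg it was 175, 111 with the replicate block, and 84 to 186 when 1 library was left out (84 without GR WT replicate 3, 107 without GR WT replicate 1). In HFSC it was 22, and 2 with no filter, 48 at a mean of at least 5 TPM, 69 with median ratio scaling, 58 with quantile normalization, 51 with a robust prior, 584 with sample weights, 66 with the replicate block, and 0 to 5 when 1 library was left out; sample weights gave 314 higher and 270 lower. The cause was not tested. Deviations from the group mean were correlated over genes between a GR KO and a GR WT library. Same-numbered libraries gave 0.17, 0.09 and -0.12 in Treg and 0.02, 0.06 and -0.04 in HFSC. Other pairs lay between -0.24 and 0.18 in Treg and between -0.07 and 0.05 in HFSC. With so few libraries, these values cannot decide whether the numbers mark a shared mouse, litter or day. Bag3 in Treg passed with a mean of at least 5 TPM (0.0493), median ratio scaling (0.0312), quantile normalization (0.0442) and a robust prior (0.0433). Nr3c1 in Treg passed with median ratio scaling (0.0448), without GR KO replicate 4 (0.027) and with the replicate block (0.0315), and Cryab in Treg with the block (0.0353). Of 1557 other values under the alternatives, 22 came to pass the threshold, 11 of these with sample weights in HFSC. The remaining 1535 kept their side of it or were medians of the 10 genes, which have no p-value. Those medians all shifted by less than the SD of the 10 main fold changes. HFSC GR WT replicate 1 had the fewest tags (4.5 M).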
